A study of Mus musculus with 24 samples.

Results

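The respiratory chain subunits encoded in the nucleus were followed in mouse kidney before and after ureteral obstruction. Members were taken by symbol from the raw count table: every symbol that begins with Nduf, Uqcr or Atp5, the symbols Sdha, Sdhb, Sdhc and Sdhd, and every symbol that begins with Cox4, Cox5, Cox6, Cox7 or Cox8. This rule found 92 of 23955 symbols and used no measured value. It gave 38 genes of complex I, 4 of complex II, 8 of complex III, 18 of complex IV and 15 of complex V, which makes 83 subunits. A further 7 were the complex I assembly factors Ndufaf1 to Ndufaf7, and 2 (Atp5s and Atp5sl) carry the Atp5 prefix without being subunits. Of the 92, 88 passed the filter on low counts and entered the tests. Cox7b2, Cox8b, Cox8c and Ndufs5 did not.

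The study sampled the kidney of mice with intact phospholipase D4 (genotype PLD4+/+, WT here) and of mice labelled PLD4-/- (KO here). Each genotype gave 4 control libraries at day 0, 4 libraries at day 5 and 4 at day 10 of unilateral ureteral obstruction, a model of kidney fibrosis in which the ureter of 1 kidney is blocked. The 6 groups therefore held 4 libraries each, and the control groups differed from the obstructed ones in treatment as well as day. The labels give no strain, age, sex or targeting strategy, and they do not say whether the replicates were separate animals. The p-values below therefore measure the spread between these libraries, which may be technical.

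The respiratory chain is a set of protein complexes in the inner mitochondrial membrane. Complex I takes electrons from NADH and complex II takes them from succinate. Both pass them by way of ubiquinone to complex III, from which cytochrome c carries them to complex IV, which reduces oxygen. Complexes I, III and IV pump protons, and complex V, the ATP synthase, lets the protons flow back and makes ATP. Most subunits are encoded by nuclear genes and imported, while a small set is encoded by mitochondrial DNA. Proximal tubule cells, which make up much of the kidney cortex, are rich in mitochondria because sodium and solute reabsorption consumes ATP.

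Total counts per library ran from 9800888 to 22542866. None of the 13 symbols of mitochondrially encoded subunits was in the count table, so only nuclear genes are described. At day 0 the mean level of Pld4, in counts scaled to a common library size by TMM (CPM), was 6.69 ± 1.61 in WT and 9.48 ± 2.48 in the KO libraries (SD, n = 4 each), which gives no check of the labels there. At day 5 it averaged 48.3 ± 1.84 CPM in WT and 20.3 ± 8.48 in KO, and at day 10 81.5 ± 27.1 in WT and 37.3 ± 10.7 in KO. Its RNA was thus present in the libraries labelled KO, and which part of the gene was deleted is not given in the sources used here. WT day 10 replicates 2 and 3 stood apart: their summed neutrophil markers were 3685 and 6349 CPM, against 26.3 and 25.4 CPM in replicates 1 and 4. The median over all members and the number of members called are also given without these libraries where they rest on WT day 10. Values of single complexes and genes at WT day 10 include these libraries unless stated otherwise.

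Before obstruction the common subunits were among the abundant transcripts of the kidney. The 92 members together took 2.77% ± 0.129 (SD, n = 4) of all counts in WT and 2.53% ± 0.137 in KO. Levels between genes are compared here on the deposited FPKM scale, which counts fragments relative to transcript length and library depth. At WT day 0 the highest members were Ndufa4 at 1472 ± 146 FPKM, Atp5b at 1291 ± 109 FPKM, Cox4i1 at 1224 ± 86.8 FPKM and Atp5k at 1222 FPKM. Sdha to Sdhd lay between 204 and 286 FPKM, and Ndufs1 was at 83.4 ± 7.74 FPKM. The assembly factors were far lower, from 4.34 FPKM for Ndufaf5 to 25.5 FPKM for Ndufaf2. Some forms known from other tissues were scarce: Cox6a2 averaged 1.59 ± 0.96 FPKM, Cox4i2 0.883 ± 0.236 FPKM and Ndufa4l2 2.40 ± 0.626 FPKM, while Cox8c was listed at 0 in each of the 24 libraries. Others were higher, with Cox6b2 at 9.48 ± 1.76 FPKM and Cox7a1 at 54.8 ± 7.46 FPKM.

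After obstruction the subunits of all 5 complexes fell together in both genotypes. In WT, 81 of the 88 tested members were lower and 2 higher at day 5 by edgeR's quasi-likelihood test with Benjamini-Hochberg adjustment over all 15080 genes at 0.05. Of all genes tested, 25.6% were called lower and 31% higher in that comparison, 56.6% in either direction. At day 10 in WT, 84 members were lower and 1 higher, against 30.3% and 37.8% of all genes (68.1% in either direction). In KO, 80 members were lower and 2 higher at day 5 (17% and 22.4% of all genes, 39.5% in either direction), and 82 were lower and 1 higher at day 10 (26% and 28.3%, 54.3% in either direction). The median member stood at a log2 fold change of -0.97 in WT at day 5, -1.44 in WT at day 10, -0.88 in KO at day 5 and -1.22 in KO at day 10. The corresponding medians over all genes tested were 0.08, 0.12, 0.01 and 0.04. Without WT day 10 replicates 2 and 3 the WT day 10 median was -1.23, with 85 members lower and 1 higher. The day 5 and day 10 comparisons of a genotype share their day 0 libraries. In these bulk samples, fewer cells of a type and less RNA per cell cannot be told apart.

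The share of all counts taken by the 92 members also fell, without any model or TMM scaling. It was 1.80% ± 0.145 (SD, n = 4) in WT and 1.67% ± 0.284 in KO at day 5, and 1.29% ± 0.426 in WT and 1.36% ± 0.194 in KO at day 10. Each obstructed library lay below each day 0 library: the highest obstructed share was 2.08% in KO day 5 replicate 2, and the lowest day 0 share was 2.33% in KO replicate 3. The 4 WT day 10 libraries spread widely, from 0.951% in replicate 2 and 1.07% in replicate 3 to 1.90% in replicate 4. On such unscaled totals the fall was smaller than with TMM. By edgeR with total count scaling the median member stood at -0.50 in WT and -0.55 in KO at day 5, with 46 and 58 members lower. The medians over all genes were then 0.55 and 0.34. At day 10 the median member stood at -0.95 in WT and -0.78 in KO, with 79 and 78 lower.

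**Figure D1:**
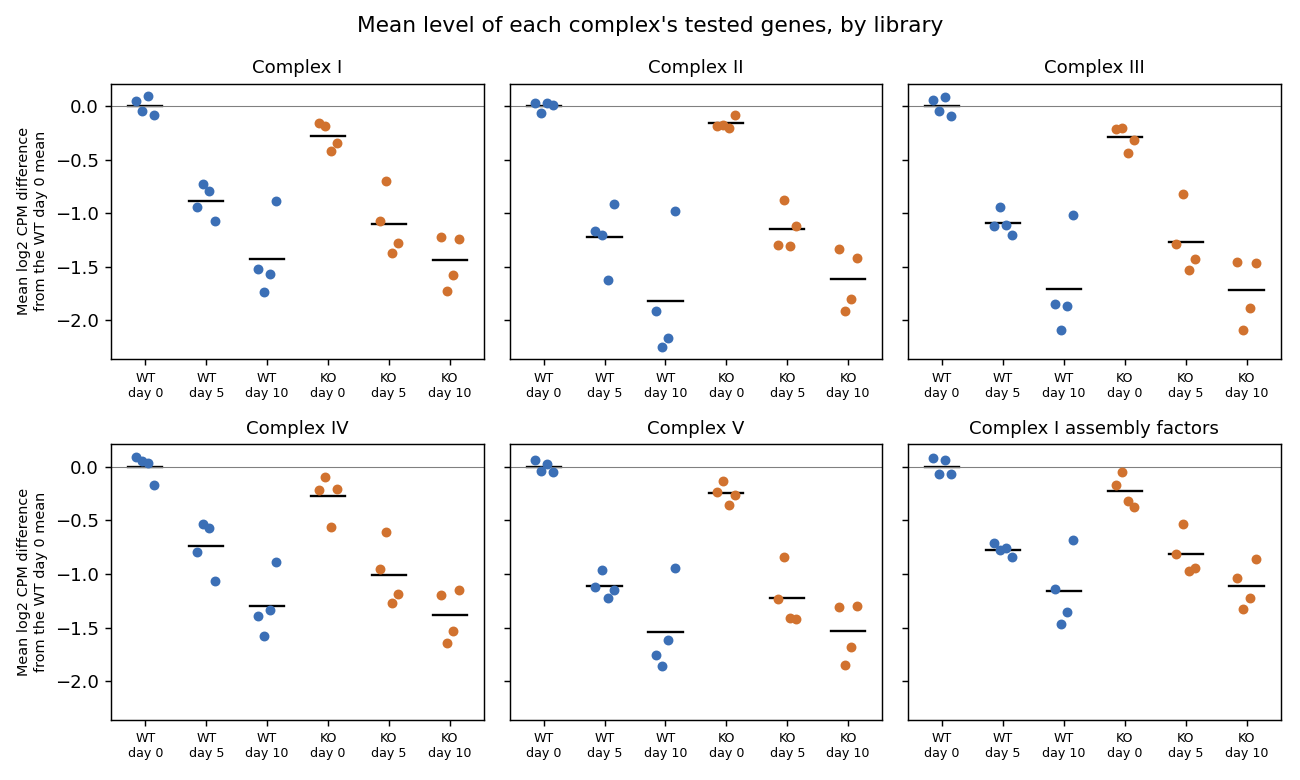
Mean log2 CPM of the tested genes of each complex in each of 24 libraries (points, 4 per group), as the difference from the WT day 0 mean; black lines are group means and the y axis is in log2 units. In each panel the obstructed libraries sit below the day 0 libraries of their genotype, and WT day 10 replicate 4 is the least lowered of its group.

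The size of the fall depended on how libraries were put on one scale. Counts scaled by TMM put the median gene at 0.08 (WT, day 5), whereas the deposited FPKM put it at 0.53 as a difference of log2(FPKM + 1), a scale that understates the change of low genes. On the FPKM scale the median member stood at -0.31 in WT and -0.31 in KO at day 5, and at -0.89 in WT and -0.64 in KO at day 10. Relative to the median of all genes, members lay at -0.84 in WT at day 5 on the FPKM scale and at -1.05 on the count scale. At day 10 in WT these relative values were -1.43 and -1.56. The calls at day 5 were the ones that moved: limma on log2(FPKM + 1), which tested 89 members, called 29 lower and 4 higher in WT and 16 lower and 4 higher in KO. At day 10 it still called 79 lower and 3 higher in WT and 70 lower and 3 higher in KO.

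**Figure D2:**
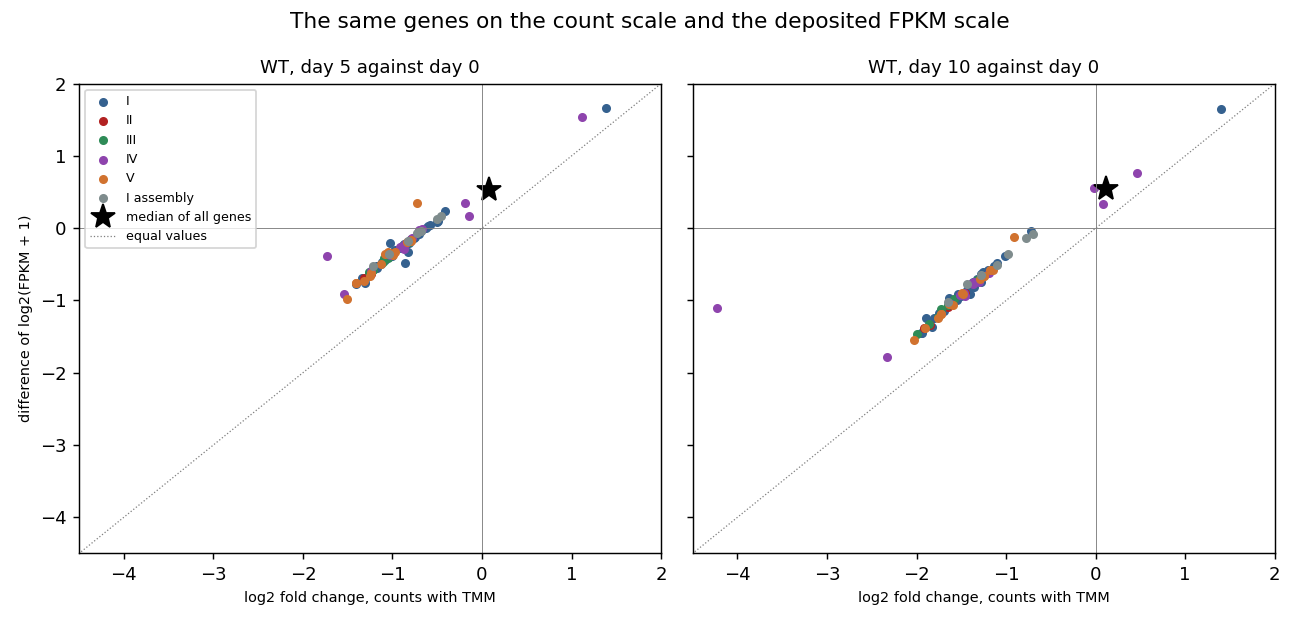
Each tested gene of the 5 complexes and the complex I assembly factors in WT (points, coloured by complex), with the log2 fold change from TMM-scaled counts on the x axis and the difference of log2(FPKM + 1) on the y axis; the star is the median of all genes and the dotted line marks equal values. Nearly all members lie to the lower left of the star on both axes, and the star itself sits at 0.08 on the x axis and 0.53 on the y axis at day 5.

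Complex I, the NADH dehydrogenase, fell across its core and its accessory subunits. Of 37 tested genes, 34 were lower and 1 higher in WT at day 5, and 36 lower and 1 higher at day 10. In KO, 35 were lower and 1 higher at day 5 and 36 lower and 1 higher at day 10. The 7 core subunits, which hold the flavin and the iron-sulfur clusters, had a median log2 fold change of -1.02 in WT at day 5 and -1.60 at day 10. The 30 accessory subunits stood at -0.88 and -1.39. In KO the core stood at -0.85 and -1.34, and the accessory subunits at -0.84 and -1.15.

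Ndufs1 encodes the largest iron-sulfur subunit of complex I. Its level was 440, 431, 441 and 469 CPM in the 4 WT day 0 libraries and 392, 400, 444 and 453 CPM in KO. At day 5 it was 199, 150, 118 and 251 CPM in WT and 176, 232, 190 and 234 CPM in KO. The day 10 values were 109, 70.9, 72.6 and 211 CPM in WT and 178, 112, 112 and 155 CPM in KO. No obstructed library reached the lowest day 0 library, and WT day 10 replicate 4 lay within the range of the WT day 5 libraries. The log2 fold change was -1.31 ± 0.28 (SE, adjusted p = 0.00053) in WT at day 5 and -1.94 ± 0.28 (adjusted p = 5.1e-06) at day 10. In KO it was -1.02 ± 0.27 (adjusted p = 0.0062) and -1.60 ± 0.28 (adjusted p = 8.9e-05).

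Ndufv1, the flavoprotein that binds NADH, fell too, with log2 fold changes of -1.17 in WT at day 5 and -1.83 at day 10, and at -0.89 and -1.33 in KO. Ndufv3, a small partner of Ndufv1, had the lowest adjusted p of all members at WT day 10. Its levels there were 74.1, 49.5, 58.2 and 92.4 CPM, against 269, 249, 257 and 241 CPM at WT day 0. This was a log2 fold change of -1.89 ± 0.17 (SE, adjusted p = 1.9e-08). The largest falls of the complex in WT were those of Ndufb9 at day 5 (-1.41) and of the accessory subunit Ndufa10 at day 10 (-1.95). Ndufa7 was the complex I subunit with the smallest fall: its fold change of -0.41 in WT at day 5 was not called (adjusted p = 0.11), nor was its -0.52 in KO (adjusted p = 0.058), and it fell at day 10 by 0.72 and 0.79 on the log2 scale.

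The single complex I symbol called higher was Ndufa4l2, a paralog of Ndufa4 known as a hypoxia-inducible gene. Its level was 2.94, 4.51, 4.67 and 3.09 CPM in WT at day 0 and 4.81, 6.45, 2.44 and 3.59 CPM in KO. At day 5 it was 7.79, 10.9, 13.8 and 7.41 CPM in WT and 10.1, 11.9, 10.3 and 8.71 CPM in KO. The day 10 values were 7.35, 16.1, 9.44 and 7.30 CPM in WT and 8.35, 7.79, 9.25 and 6.72 CPM in KO. No obstructed library of either genotype was as low as the highest day 0 library of that genotype. The log2 fold change was 1.39 ± 0.29 (SE, adjusted p = 0.0005) in WT at day 5 and 1.40 ± 0.29 (adjusted p = 0.00025) at day 10. In KO it was 1.26 ± 0.29 (adjusted p = 0.0019) at day 5 and 0.91 ± 0.29 (adjusted p = 0.012) at day 10. Leaving out KO day 0 replicate 3, the lowest library, took the last value to 0.71 (adjusted p = 0.051).

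Ndufa4 itself, named for complex I and now placed with complex IV, went the other way. It fell from 1028, 911, 943 and 732 CPM at WT day 0 to 368, 392, 357 and 311 CPM at day 5. At day 10 it stood at 192, 172, 262 and 413 CPM. The log2 fold change was -1.34 ± 0.26 at day 5 and -1.80 ± 0.26 at day 10 in WT, and -1.12 ± 0.25 and -1.57 ± 0.26 in KO. On the FPKM scale Ndufa4l2 amounted to 0.163% ± 0.0383 (SD, n = 4) of Ndufa4 at WT day 0, 1.08% ± 0.300 at day 5 and 1.83% ± 1.29 at day 10. In KO it amounted to 0.236% ± 0.0563, 1.28% ± 0.224 and 1.44% ± 0.455. The rising paralog therefore remained a small fraction of the falling one.

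The complex I assembly factors, which help to build the complex but are not part of it, fell less than the subunits. All 7 were lower in WT at both days, 5 of 7 were lower in KO at day 5 and 6 of 7 at day 10. Their median log2 fold change was -0.72 in WT at day 5 and -1.10 at day 10, and -0.54 and -0.90 in KO. Ndufaf4 fell most at day 5, by 1.22 on the log2 scale in WT. Ndufaf2 and Ndufaf3 were not called in KO at day 5 (adjusted p = 0.13 and 0.19). In 13 of the 16 obstructed libraries the mean of the assembly factors lay above the means of all 5 complexes. On the FPKM scale the day 5 medians of these genes were near 0, at -0.07 in WT and 0.03 in KO.

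Complex II, succinate dehydrogenase, is the part of the chain that also belongs to the citric acid cycle. All 4 genes were lower in all 4 obstruction comparisons, with medians of -1.25 in WT at day 5, -1.75 in WT at day 10, -1.03 in KO at day 5 and -1.46 in KO at day 10. Sdha, the flavoprotein that oxidises succinate, stood at 1124, 1098, 1107 and 1221 CPM at WT day 0. It stood at 526, 440, 314 and 654 CPM at day 5 and at 308, 188, 213 and 551 CPM at day 10. The KO libraries ran from 981 to 1307 CPM at day 0, from 476 to 610 CPM at day 5 and from 324 to 468 CPM at day 10, with no overlap between control and obstructed kidneys.

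Sdhb, the iron-sulfur subunit, showed the largest fall of the complex at WT day 10, at -1.91 ± 0.26 (SE, adjusted p = 2.1e-06). The membrane anchors were lowered less than Sdha and Sdhb at WT day 10. Sdhc stood there at -1.65 ± 0.20 and Sdhd at -1.46 ± 0.24. Without WT day 10 replicates 2 and 3 the Sdhb value was -1.49 (adjusted p = 0.00013), and the complex II median was -1.32.

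Complex III, the cytochrome bc1 complex, was lower in 8 of 8 tested genes in each of the 4 comparisons. The medians were -1.10 and -1.69 in WT at day 5 and day 10, and -0.94 and -1.40 in KO. Uqcrfs1, the Rieske iron-sulfur protein that hands electrons to cytochrome c1, went from 578, 557, 631 and 595 CPM at WT day 0 to 255, 265, 219 and 247 CPM at day 5. Its day 10 levels were 139, 95.8, 98.0 and 262 CPM, so that replicate 4 was within the day 5 range and the other libraries were below it. Its log2 fold change was -1.26 ± 0.24 (SE, adjusted p = 0.0002) at day 5 and -1.99 ± 0.25 (adjusted p = 6.9e-07) at day 10. In KO it was -1.06 ± 0.24 and -1.58 ± 0.24. The core proteins Uqcrc1 (-1.86) and Uqcrc2 (-1.76) fell alike at WT day 10, while the hinge protein gene Uqcrh had the smallest fall, at -1.17.

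Complex IV, cytochrome c oxidase, held most of the exceptions. Of its 15 tested genes 12 were lower in each of the 4 comparisons, with medians of -0.85 and -1.37 in WT and -0.86 and -1.22 in KO. Cox4i1, the common form of the regulatory subunit 4, fell from 1288, 1198, 1289 and 1072 CPM at WT day 0 to 613, 731, 764 and 527 CPM at day 5. At day 10 it was at 429, 386, 477 and 716 CPM. Its log2 fold change was -0.88 ± 0.21 (SE, adjusted p = 0.0013) and -1.27 ± 0.21 (adjusted p = 2e-05), and in KO -0.86 ± 0.21 and -1.19 ± 0.21. The alternative form Cox4i2, known from lung and from hypoxia, was not called in any of the 4 comparisons on the count scale and had 6 to 27 counts per library. On the FPKM scale it was called higher in KO at day 5, by 0.50.

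Cox7a2l, which takes part in joining complexes III and IV into supercomplexes, was the abundant member that did not fall on the count scale. It was at 92.1, 90.3, 93.4 and 82.8 CPM at WT day 0, at 67.2, 93.6, 73.7 and 79.2 CPM at day 5 and at 71.5, 95.1, 97.6 and 89.2 CPM at day 10. In KO it ran from 77.5 to 96.9 CPM at day 0, from 79.2 to 117 CPM at day 5 and from 73.4 to 87.7 CPM at day 10. The groups overlapped in each comparison. Log2 fold changes were -0.19 ± 0.13, -0.02 ± 0.13, 0.01 ± 0.13 and -0.16 ± 0.13 in WT at day 5 and day 10 and in KO at day 5 and day 10, with adjusted p between 0.21 and 0.98. On the FPKM scale it was called higher in all 4, by 0.35, 0.56, 0.60 and 0.44.

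Its relatives of the subunit 7a family fell. Cox7a2, the common form, stood at -1.24 and -1.47 in WT and -1.12 and -1.38 in KO. Cox7a1, the form known from heart and skeletal muscle, went from 17.7, 19.7, 20.5 and 15.4 CPM at WT day 0 to 6.48, 7.73, 6.36 and 4.68 CPM at day 5. Its day 10 levels were 3.56, 1.62, 2.84 and 6.56 CPM. This was a log2 fold change of -1.54 ± 0.32 (SE, adjusted p = 0.00045) and -2.33 ± 0.33 (adjusted p = 3.9e-06), and in KO of -1.36 ± 0.32 and -2.03 ± 0.33. Measured by FPKM, Cox7a1 amounted to 11.9% ± 1.11 (SD, n = 4) of Cox7a2 at WT day 0, 9.34% ± 0.814 at day 5 and 6.49% ± 2.66 at day 10.

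Cox6b2, known as the testis form of subunit 6b, rose at day 5 on the count scale and at both days on the FPKM scale. It was at 5.79, 5.95, 6.73 and 5.33 CPM at WT day 0 and at 11.1, 15, 16.5 and 8.96 CPM at day 5. At day 10 it was at 9.86, 8.17, 7.74 and 6.98 CPM, above the control libraries and below most day 5 libraries. In KO it was at 5.93, 6.33, 2.36 and 6.47 CPM at day 0, 9.62, 10.3, 8.86 and 6.39 CPM at day 5, and 7.88, 7.32, 6.94 and 8.71 CPM at day 10. The log2 fold change was 1.11 ± 0.25 (SE, adjusted p = 0.00075) in WT and 0.74 ± 0.25 (adjusted p = 0.021) in KO at day 5, and 0.46 and 0.55 at day 10 (adjusted p = 0.0996 and 0.063). Measured by FPKM, Cox6b2 was called higher at day 10 as well, by 0.77 in WT (limma, adjusted p = 0.0083) and 1.02 in KO (adjusted p = 0.0012). The KO day 5 value was 0.49 (adjusted p = 0.069) without KO day 0 replicate 3 and 0.66 (adjusted p = 0.057) without KO day 5 replicate 2. The common form Cox6b1 fell by 0.85 and 1.37 on the log2 scale in WT, so that on the FPKM scale Cox6b2 went from 1.07% ± 0.118 of Cox6b1 at WT day 0 to 3.86% ± 0.518 at day 5.

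**Figure D3:**
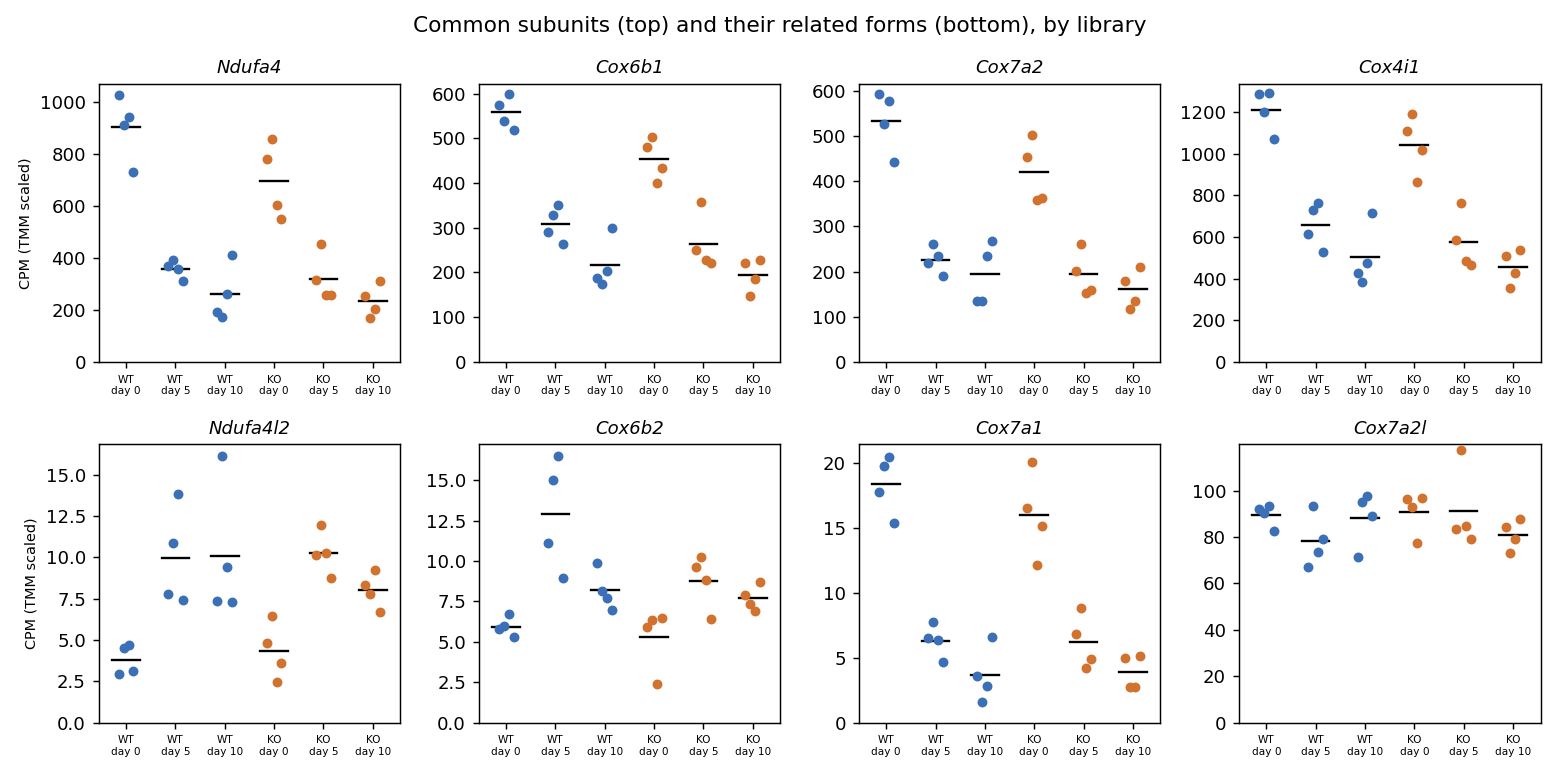
CPM in each of 24 libraries (points, 4 per group; black lines are group means; linear axes that start at 0) of 4 common subunits in the top row and of related forms in the bottom row. The top row and Cox7a1 fall after obstruction, and Ndufa4l2 lies higher than day 0 of the same genotype. The day 5 values of Cox6b2 lie higher than day 0 in WT and overlap with day 0 in KO. Cox7a2l overlaps between groups on this count scale and is higher on the FPKM scale.

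The muscle forms Cox6a2 and Cox8b were near the limit of counting. Cox6a2 had 25, 38, 13 and 10 counts at WT day 0, 13, 8, 6 and 12 at day 5, and 4, 1, 2 and 0 at day 10. In KO it had 8, 7, 8 and 32 counts at day 0, 3, 13, 3 and 9 at day 5, and 6, 4, 2 and 2 at day 10. It was called lower in all 4 comparisons. The value at WT day 10 was -4.23 ± 0.68 on the log2 scale (adjusted p = 1.6e-05), and that at KO day 10 was -2.50 ± 0.63 (adjusted p = 0.0024). The KO day 5 call also ended without KO day 5 replicate 1, 3 or 4 (adjusted p = 0.11, 0.12 and 0.054). Without KO day 0 replicate 4 the KO values were -0.81 (adjusted p = 0.3) at day 5 and -1.77 (adjusted p = 0.026) at day 10, and without WT day 0 replicate 2 the WT day 5 value of -1.73 became -1.32 (adjusted p = 0.061). Cox8b, which was not tested, had 14 counts in WT day 0 replicate 3, 16 in KO day 0 replicate 4 and at most 4 in any other library.

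Some markers of brown fat and of muscle were present in the libraries with the most Cox8b counts. Ucp1, the brown fat uncoupling protein, was at 1.28 and 1.97 CPM in WT day 0 replicates 2 and 3 and at 0.468 CPM in KO day 0 replicate 4, and at or below 0.265 CPM in each of the other libraries. The muscle myosin Myh1 was at 4.52 CPM in KO day 0 replicate 4, while Myh2 and Myh4 were at 0 in all 24 libraries. Other listed genes in KO day 0 replicate 4 were mixed. Ckm, Myl1 and Plin1 were at 0 there, and Adipoq was at 0.078 CPM. Actn2, at 0.468 CPM, lay below KO day 0 replicates 1 and 2 (1.03 and 0.955 CPM). Cidea (0.312 CPM) and Myh6 (1.25 CPM) were the highest of the KO day 0 libraries. In WT, Myh6 ran from 0.850 to 2.69 CPM at day 0 and from 0.409 to 0.590 CPM at day 5. Mb went the other way, from at most 0.0850 CPM at WT day 0 to at least 0.531 CPM at day 5. WT day 0 replicate 1, with 25 Cox6a2 counts, had 0.0865 CPM of Ucp1, 0.259 CPM of Adipoq and 1.38 CPM of Cfd. The summed brown adipocyte list of 6 genes, which Fabp4 dominated, ran from 34.4 to 98.1 CPM at WT day 0 and from 51.6 to 282 CPM at WT day 10. It was highest in WT day 10 replicate 2, which had 1 Cox6a2 count. Fabp4 made 281 of the 282 CPM in that library, so the sum there is a value of Fabp4 and not of the list. The part of such cells in the Cox8b and Cox6a2 values was not tested.

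Complex V, the ATP synthase, was lower in 15 of 15 tested genes in 3 of the comparisons and in 14 of 15 in KO at day 10. Medians were -1.08 and -1.49 in WT and -0.94 and -1.32 in KO. Atp5b, the catalytic beta subunit of the head, was at 4490, 4257, 4508 and 4673 CPM at WT day 0. It was at 1634, 1513, 759 and 2398 CPM at day 5 and at 865, 708, 716 and 2120 CPM at day 10. KO libraries ran from 3584 to 4042 CPM at day 0, from 1443 to 2363 CPM at day 5 and from 1016 to 1596 CPM at day 10. Each obstructed library was below each control library, and WT day 10 replicate 4 stood far above the other libraries of its group. The log2 fold change was -1.51 ± 0.33 (SE, adjusted p = 0.0008) and -2.02 ± 0.34 (adjusted p = 2.7e-05) in WT, and -1.01 ± 0.33 (adjusted p = 0.02) and -1.58 ± 0.33 (adjusted p = 0.00057) in KO. Its alpha partner Atp5a1 stood at -1.25 and -1.76 in WT and at -0.94 and -1.42 in KO.

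The genes Atp5g1, Atp5g2 and Atp5g3 encode the same mature ring subunit c with different import signals, and they did not fall equally. Atp5g1 was at 213, 209, 228 and 191 CPM at WT day 0, at 99.4, 117, 99.9 and 89.5 CPM at day 5 and at 52.4, 40.5, 43.4 and 88.8 CPM at day 10. Atp5g1 stood at -1.05 ± 0.20 and -1.90 ± 0.20 on the log2 scale in WT, and Atp5g3 at -0.83 ± 0.23 and -1.73 ± 0.23. Atp5g2 stood at -0.73 ± 0.14 and -0.91 ± 0.14 on the count scale, and at 0.35 and -0.12 on the FPKM scale, where the day 5 value was called higher. Measured by FPKM, Atp5g2 amounted to 27.3% ± 0.872 (SD, n = 4) of Atp5g3 at WT day 0, 39.8% ± 0.440 at day 5 and 59.3% ± 18.1 at day 10. Atp5g1 amounted to 33.6% ± 1.60, 30.5% ± 2.17 and 29.3% ± 2.39 of Atp5g3.

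The deposited count and FPKM values did not describe some members alike, and complex V held the clearest case. The transcript length that a count and an FPKM value together imply was 2.28 bases for Atp5l, which had 3 to 31 counts per library but 742 ± 39.5 FPKM (SD, n = 4) at WT day 0. Implied lengths were 76.7 bases for Atp5g2, 127 bases for Ndufb4 and 137 bases for Atp5k. Ndufs5, an accessory subunit of complex I, had 0 counts in all 24 libraries and at most 3.99 FPKM. How reads that fit several places were counted is not given in the sources used here, so fold changes of these genes are uncertain. Leaving Atp5l, Atp5g2 and Atp5k out moved the complex V median at WT day 10 from -1.49 to -1.61 (12 genes).

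**Figure D4:**
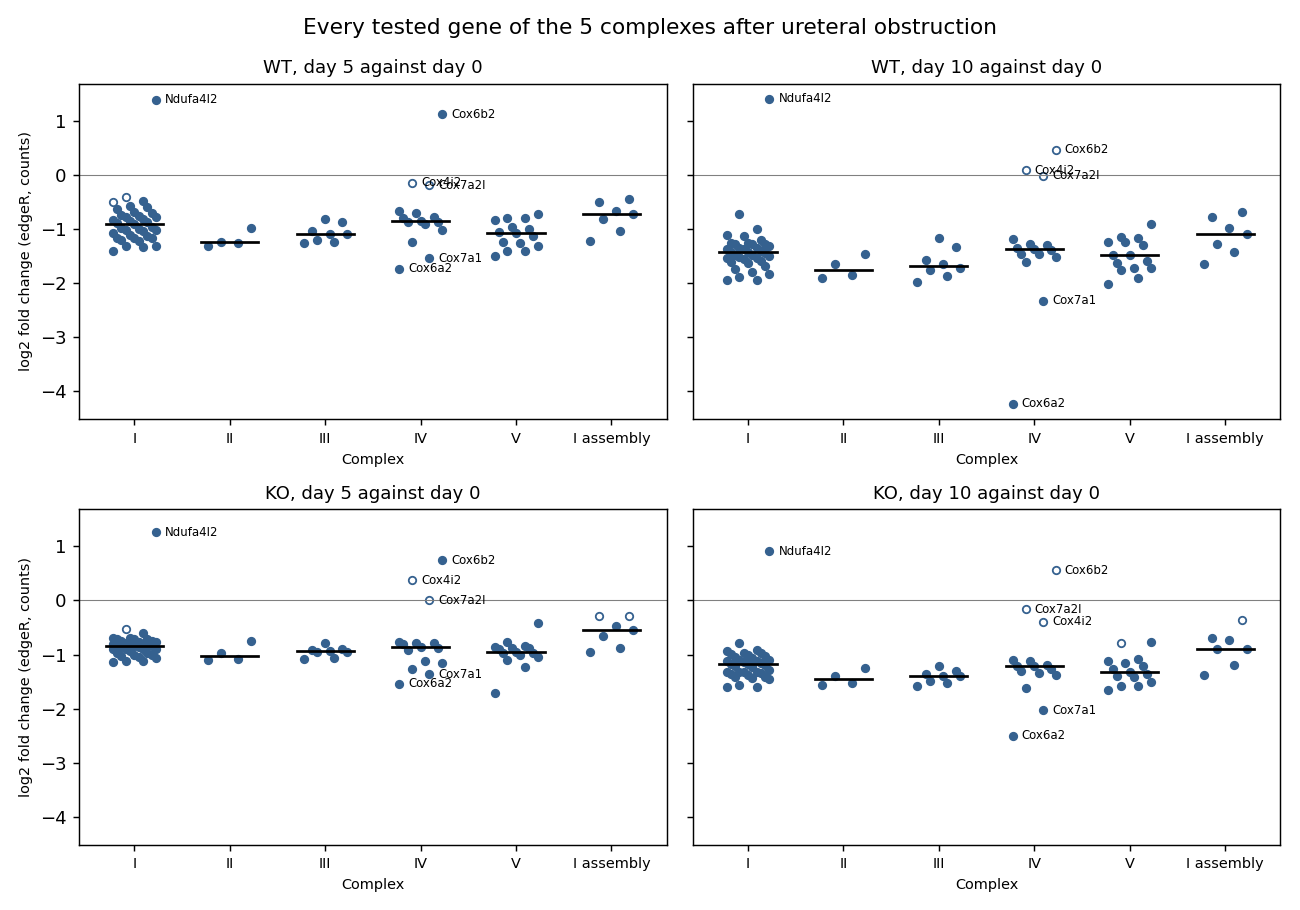
Log2 fold change from counts of each tested gene of the 5 complexes and the complex I assembly factors in the 4 obstruction comparisons; filled points passed the adjusted threshold, open points did not, and black lines are medians. Most points lie between -0.5 and -2, with Ndufa4l2 and Cox6b2 above 0. Within complex IV, Cox7a2l and Cox4i2 are nearest to 0 on this count scale, and Cox7a1 and Cox6a2 are lowest.

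Between complexes the medians differed by less than they fell, from -0.85 in complex IV to -1.25 in complex II at WT day 5. In single libraries the gap could exceed the fall of a complex. In WT day 5 replicate 3 the mean of complex II lay 1.04 below that of complex IV, which stood at -0.58. Complexes II and III had the lowest medians at day 10 in both genotypes and complex IV the highest in WT. Library by library, the mean of complex III lay below that of complex I in 16 of the 16 obstructed libraries, and so did the mean of complex V. The mean of complex II lay below that of complex I in 13 and was the lowest of the 5 in 8. These are descriptions of the same libraries, with no test between complexes.

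The gap between complexes II and I was set beside the implied length of the genes, which comes from counts and FPKM and is not a measured length. All 4 complex II genes are among the longer subunits below, and 26 of the 37 complex I genes are among the shorter. The gap between complexes and the gap between lengths therefore share genes and are related in part by construction. The 4 complex II genes all had implied lengths of at least 1282 bases, while the median over the complex I genes was 656 bases. Over all complexes at WT day 10, the 24 subunits of at least 1000 bases had a median of -1.67 and the 55 shorter ones -1.38, and within complex I these medians were -1.51 (11 genes) and -1.39 (26 genes). At WT day 5 the longer subunits stood at -1.21 and the shorter at -0.88, and in KO at day 5 at -0.94 and -0.86. Library by library the gap between complexes II and I was widest in WT day 5 replicate 3, at -0.82, where longer subunits lay 0.55 below shorter ones. Among the obstructed libraries it was above 0 in WT day 5 replicate 4 (0.16) and in KO day 5 replicates 3 (0.06) and 4 (0.15). Longer subunits lay 0.20, 0.15 and 0.27 above shorter ones in these libraries. Without obstruction the gap reached 0.22 and 0.26 in KO day 0 replicates 3 and 4, where longer subunits lay 0.19 and 0.14 above shorter ones. RNA quality values are not given in the sources used here, and the part of length in the gap was not tested.

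**Figure D5:**
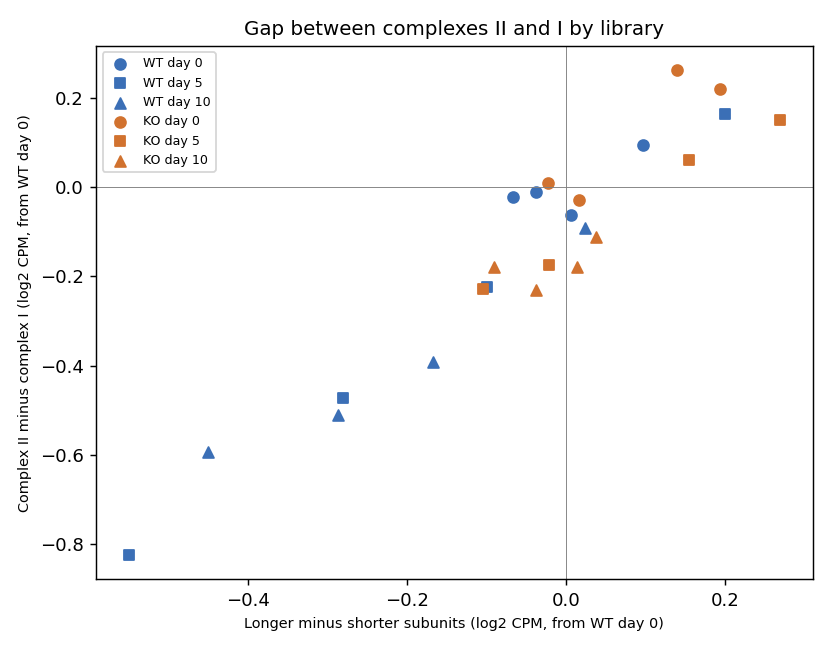
For each of 24 libraries, the mean log2 CPM of subunits of at least 1000 bases minus that of shorter subunits (x axis) and of complex II minus complex I (y axis), both relative to WT day 0; colours are genotypes and shapes are days. Libraries with lower values for longer subunits also have lower values for complex II, and both axes share the same libraries and some of the same genes.

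Between day 5 and day 10 the fall went on in WT, though the count of calls hung on single libraries. By edgeR 25 of 88 members were lower and 0 higher at day 10 than at day 5, against 2.93% and 7.86% of all genes (10.8% in either direction). The median member stood at -0.51, and at -0.27 without WT day 10 replicates 2 and 3. Ndufv3 (-0.81 ± 0.17, SE, adjusted p = 0.0073), Atp5g1 (-0.85 ± 0.20, adjusted p = 0.011) and Ndufs7 (-0.74 ± 0.18, adjusted p = 0.013) led the list. They were followed by Cox6a1, Atp5g3, Ndufa13, Ndufa12, Cox8a, Cox5b, Ndufv2, Cox5a and Ndufa6, with log2 fold changes from -0.57 to -0.90. Leaving out WT day 10 replicate 2 or replicate 3 left 1 call each, and leaving out both left 0. Without replicate 4, 69 members were lower. A fit of these groups alone gave 0 calls, and leaving out a WT day 5 library gave from 5 to 30.

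In KO no member passed between day 5 and day 10 by edgeR or by DESeq2, while 27 members had an unadjusted p under 0.05 in edgeR. Of all genes 0.0199% were called higher and 0% lower. The median member stood at -0.36, and the lowest adjusted p was 0.35, for Atp5g1 (-0.61) and Cox5a (-0.52).

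No member differed between the genotypes at the threshold. At day 0 edgeR called 0 members, with 3 at an unadjusted p under 0.05, and DESeq2 called 0, while 0.531% of all genes were called lower and 3.65% higher (4.18% in either direction). Yet 86 of 88 members lay below WT there, with a median of -0.26 against 0.01 for all genes, and the lowest adjusted p was 0.18 for Ndufaf2 (-0.39). In a fit of the 2 day 0 groups alone 10 members were lower in KO, among them Uqcrq (-0.46, adjusted p = 0.034) and Cox8a (-0.39, adjusted p = 0.021). Beside this, the summed proximal tubule markers were 87737 to 103309 CPM in WT and 42174 to 78065 CPM in KO at day 0. Summed macrophage markers were 159 to 242 and 346 to 484 CPM, and none of the 9 macrophage markers found or the 15 tubule markers was at 0. None of the 15 tubule markers was called lower in KO, and their median log2 difference was -0.02. Their part in the lower values was not tested.

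At day 5 edgeR called 0 members between KO and WT, with 11 at an unadjusted p under 0.05, and DESeq2 called 0. Of all genes 0.0796% were lower and 0.0663% higher (0.146% in either direction), and the median member was at -0.17. Without WT day 5 replicate 4 edgeR called 2. At day 10 edgeR called 0, with 1 at an unadjusted p under 0.05, and DESeq2 called 0, while 1.27% of all genes were lower and 0.139% higher (1.41% in either direction). The median member was then at -0.05. The value hung on WT day 10 libraries in both directions. Without replicates 2 and 3 the median was -0.27 with 0 calls. Without WT day 10 replicate 4, 6 members were higher in KO, among them Ndufs1 (0.72, adjusted p = 0.035), Sdha (0.67, adjusted p = 0.044) and Uqcrc2 (0.60, adjusted p = 0.044).

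The test of whether obstruction acted differently in the 2 genotypes called 0 members at day 5 and 0 at day 10. Neither day had a member with an unadjusted p under 0.05 in edgeR, and DESeq2 called 0 at both. Of all genes 0.531% had a lower and 0.0332% a higher response in KO at day 5, and 3.12% and 0.133% at day 10 (0.564% and 3.25% in either direction). The median member difference was 0.10 at day 5 and 0.24 at day 10, and 76 of 88 members lay above 0 at day 10. Without WT day 10 replicates 2 and 3 the day 10 median was -0.03, with 0 calls and a lowest adjusted p of 0.93. Without WT day 10 replicate 4, 8 members had a smaller fall in KO at day 10, among them Ndufv1 (0.90, adjusted p = 0.031), Uqcrfs1 (0.82, adjusted p = 0.031) and Sdhb (0.80, adjusted p = 0.049). In Ndufv1 the direct comparison of KO with WT at day 10 was 0.63 in that setting.

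Other mitochondrial genes moved with the chain. All lists here were chosen with earlier results of these data known. Of 10 tested chain genes that the symbol rule does not reach, 9 were lower in WT at day 5 and 10 at day 10, and 9 and 10 in KO. Cyc1, the heme protein of complex III, stood at -1.35 and -1.99 in WT, and cytochrome c (Cycs) at -1.20 and -1.67. Etfa, Etfb and Etfdh, which bring electrons from fatty acid oxidation to ubiquinone, stood at -2.17, -2.05 and -1.91 at WT day 10. The inhibitor Atpif1 was not called at day 5 in either genotype. The citric acid cycle list was lower in 19 of 19 genes in WT at both days, with medians of -1.07 and -1.69, and in 18 and 19 in KO, with medians of -0.89 and -1.33.

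The machinery that builds the chain fell less. Of 35 tested assembly factors outside the symbol rule, 30 were lower in WT at day 5 and 31 at day 10, and 23 and 32 in KO, with medians of -0.79, -0.98, -0.47 and -0.77. Of 77 mitochondrial ribosomal proteins, 63 and 71 were lower in WT and 46 and 68 in KO, with medians of -0.58, -0.75, -0.42 and -0.61, and 2 were higher in WT at day 10. Of 21 carriers and import proteins, 16 and 20 were lower in WT and 12 and 20 in KO. These medians lay between those of the subunits and those of all genes tested.

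The regulators of mitochondrial genes split. Of 23 tested, 13 were lower and 4 higher in WT at day 5, 15 lower and 3 higher at day 10, 12 lower and 1 higher in KO at day 5, and 13 lower and 2 higher at day 10. Ppargc1a, the coactivator PGC-1 alpha, was not called in WT at day 5 (-0.72, adjusted p = 0.083) and was lower at day 10 (-1.49, adjusted p = 0.00092), and in KO it stood at -1.01 and -1.24. The nuclear receptor Esrra was lower throughout, at -0.87, -1.43, -0.71 and -1.19, and so was Tfam, which binds and packages mitochondrial DNA, at -0.84 and -1 in WT and at -0.54 and -0.72 in KO. Perm1 showed the largest fall of the list, at -4.37, -4.49, -3.24 and -5.04. The factor Nrf1 was higher in WT (0.35 and 0.62) and in KO at day 10 (0.27), and the PGC-1 related coactivator Pprc1 was higher in all 4 comparisons (0.77, 1.28, 0.60 and 0.88).

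Glycolysis did not move as one group. Of 19 tested genes, 1 was higher and 8 lower in WT at day 5, and 6 higher and 11 lower at day 10. In KO, 2 were higher and 6 lower at day 5 and 3 higher and 11 lower at day 10. Of all genes tested, 31% were called higher and 25.6% lower in WT at day 5, and 37.8% and 30.3% at day 10. In KO these shares were 22.4% and 17% at day 5, and 28.3% and 26% at day 10. Hexokinase 2 (Hk2) was higher in all 4 comparisons, at 3.79, 6.22, 2.20 and 3.20 on the log2 scale, and the lactate exporter Slc16a3 stood at 6.14 at WT day 10. Pgk1 and Tpi1 were lower in all 4. The WT day 10 values include replicates 2 and 3, whose summed neutrophil markers were 3685 and 6349 CPM. The part of such cells in the glycolysis values was not tested.

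Markers of kidney cell types changed over the same libraries. The summed level of 15 proximal tubule markers had a median of 92102 CPM at WT day 0, 23512 at day 5 and 6118 at day 10, and of 71597, 19589 and 13432 CPM in KO. In WT at day 10 it ran from 699 CPM in replicate 2 to 29035 CPM in replicate 4, the library with the highest subunit levels of that group. Of these 15 markers 10 were lower in WT at day 5 and 15 at day 10, and 7 and 14 in KO, with medians of -1.83, -3.01, -1.67 and -2.23. The sum of 12 thick limb, distal tubule and collecting duct markers fell too. Its medians at day 0, 5 and 10 were 10701, 4554 and 2171 CPM in WT and 12244, 6241 and 4393 CPM in KO. Of these 12 markers 7 were lower in WT at day 5 and 11 at day 10, and 7 and 9 in KO. Summed macrophage markers had medians of 206 CPM in WT and 405 CPM in KO at day 0, and of 1011 and 1358 CPM at day 5. At day 10 they were 1460, 5204, 8603 and 1398 CPM in the 4 WT libraries and ran from 1252 to 1813 CPM in KO, so that WT replicates 2 and 3 lay above the KO range and replicates 1 and 4 within it. Spearman correlations of the mean log2 CPM of the tested subunits with marker sums were taken over the 16 obstructed libraries. They were 0.76 for the proximal tubule and 0.59 for the thick limb, distal tubule and collecting duct. For fibroblasts, macrophages and tubular injury they were -0.78, -0.66 and -0.05. These values share library scaling and group. The part of cell composition in the fall was not tested.

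The genes whose pattern over the 24 libraries was most like the mean of the tested subunits were Bola3 (Pearson r = 0.99), Hist1h2bc (0.98), Mrps7 (0.98), Mrpl42 (0.98) and Pop5 (0.98). Bola3 takes part in iron-sulfur cluster assembly, and Mrps7 and Mrpl42 are mitochondrial ribosomal proteins. Bola3 stood at -1.03 and -1.74 in WT and at -0.83 and -1.37 in KO. The likeness is a ranking over libraries that share group and depth.

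The promoters of members were searched for the letters of factors known to act on chain genes, since the members moved together. RefSeq promoters (GRCm38.p6, 300 bases that run from 250 before to 50 after a start) were found for 76 of the 92 members, 82 promoters in all. They were searched on both strands for CGCANGCGC (NRF1), TNAAGGTCA (estrogen-related receptors), ACCGGAAG (GABP) and AANATGGCG (YY1), with overlapping matches counted. The NRF1 letters stood in 34.1% of member promoters, in 11.5% of the promoters of the other tested genes and in 6.31% of all 32851 promoters. The GABP letters stood in 8.54% of member promoters, 4.02% of those of the other tested genes and 2.30% of all. For the YY1 letters these shares were 14.6%, 4.22% and 2.38%, and for the estrogen-related receptor letters 3.66%, 0.767% and 1.28%. Member promoters had a median of 58% G and C, against 52.7% over all promoters.

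The letters were spread unevenly over the complexes. At least 1 of the 4 sets stood in 18 of 33 complex I genes with a promoter, 3 of 3 in complex II, 3 of 5 in complex III, 1 of 13 in complex IV and 12 of 14 in complex V. The single complex IV gene was Cox6a1. Subunits with and without the NRF1 letters had close medians: at WT day 10 the median was -1.48 in 22 subunits with them and -1.44 in 43 without, and at WT day 5 -0.95 and -0.98. A match is a description of letters and not a binding site.

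The 250 bases before the start are shown for 5 members, from GRCm38.p6, each on the minus strand and read 5′ to 3′ along the gene. Sdha and Sdhd stand for complex II, Cox6a1 is the complex IV gene that holds a match, and Cox6b2 and Cox7a2l are complex IV genes that rose at day 5 and that were not called lower on the count scale, respectively (Cox4i2, also not called, is not shown). The positions are chr13:74350241-74350490 for Sdha, chr9:50603850-50604099 for Sdhd, chr5:115348959-115349208 for Cox6a1, chr7:4753095-4753344 for Cox6b2 and chr17:83514334-83514583 for Cox7a2l. Capitals mark matches to any of the 4 letter sets.
Sdha: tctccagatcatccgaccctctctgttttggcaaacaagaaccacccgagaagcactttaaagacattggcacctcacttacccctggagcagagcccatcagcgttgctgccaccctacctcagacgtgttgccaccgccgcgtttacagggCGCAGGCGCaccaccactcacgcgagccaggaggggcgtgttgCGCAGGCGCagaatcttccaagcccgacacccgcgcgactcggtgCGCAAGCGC
Sdhd: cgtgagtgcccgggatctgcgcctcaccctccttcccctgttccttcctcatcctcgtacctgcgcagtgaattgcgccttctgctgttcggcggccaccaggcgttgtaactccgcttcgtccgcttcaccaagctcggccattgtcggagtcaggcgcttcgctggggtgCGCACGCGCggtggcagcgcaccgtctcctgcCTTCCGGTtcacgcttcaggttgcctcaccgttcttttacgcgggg
Cox6a1: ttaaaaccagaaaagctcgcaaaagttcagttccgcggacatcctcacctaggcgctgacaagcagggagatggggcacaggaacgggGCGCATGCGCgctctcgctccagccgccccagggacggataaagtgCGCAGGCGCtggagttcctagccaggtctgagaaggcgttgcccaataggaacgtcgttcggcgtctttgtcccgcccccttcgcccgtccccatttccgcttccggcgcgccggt
Cox6b2: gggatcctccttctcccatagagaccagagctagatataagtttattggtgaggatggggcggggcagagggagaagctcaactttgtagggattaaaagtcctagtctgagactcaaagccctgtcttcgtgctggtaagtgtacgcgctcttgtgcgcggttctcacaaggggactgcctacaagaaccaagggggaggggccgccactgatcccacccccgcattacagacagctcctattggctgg
Cox7a2l: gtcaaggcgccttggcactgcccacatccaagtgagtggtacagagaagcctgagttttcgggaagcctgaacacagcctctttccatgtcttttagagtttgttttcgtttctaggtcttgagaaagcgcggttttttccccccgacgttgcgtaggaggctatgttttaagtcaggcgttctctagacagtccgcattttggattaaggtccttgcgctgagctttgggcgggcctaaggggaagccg
In this window Sdha holds the NRF1 letters 3 times and Sdhd holds them once with 1 match to the GABP letters on the other strand. Cox6a1 holds the NRF1 letters 3 times, with 2 of the matches overlapping on opposite strands. Cox6b2 and Cox7a2l hold none of the 4 sets.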

How the data were processed

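Kidney RNA from 24 samples, 4 in each of 6 groups, was sequenced. Per the labels' protocols, total RNA from TRIzol went into an Illumina TruSeq stranded mRNA preparation, and per the submitters' processing notes the tools were bcl2fastq 2.16, STAR 2.5 and Cufflinks with genome build mm9. The counter, annotation, strand setting and treatment of reads with several matches are not given in the sources used here. The authors deposited a table of raw counts per gene and a table of FPKM values, both with a column for each sample. Library totals of 9800888 to 22542866 counts set the precision, and members with few counts are named as such.

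Counts were tested with edgeR 4.0.16 in R 4.3.3 (robust quasi-likelihood test, TMM scaling, 6 group means, 18 residual degrees of freedom) after its expression filter (minimum count 10, minimum total 15). Adjusted p-values are Benjamini-Hochberg values over all 15080 genes, with a threshold of 0.05. Alternatives were DESeq2 1.42.0, no filter, another filter, total count scaling, the compared groups alone, a replicate block, leaving out libraries, and limma 3.58.1 on log2(FPKM + 1). CPM values use TMM-scaled library sizes, complex means are means of log2 CPM with a prior count of 2, shares of counts use unscaled totals, and the implied length of a gene is the median over libraries of the length at which its FPKM and the library total would give its count. Total count scaling, leaving out WT day 10 replicates 2 and 3 together, and complex V without members of implied length under 150 bases were chosen after seeing the data.

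Members and lists were chosen with earlier results of these data known. Named members are core subunits, tissue isoforms with their partners, the pair of largest and of smallest changes per complex and obstruction comparison, calls against the common direction, up to 12 members called in other comparisons, Pld4, and the 5 most similar genes. Replicate numbers deviated together in every pair for WT day 10 against day 5 (correlations 0.228, 0.105, 0.175 and 0.361) and for KO against WT at day 10 (0.204, 0.306, 0.141 and 0.28). Correlations were also positive in every pair, but smaller, for WT day 5 against day 0 (0.0476 to 0.13) and WT day 10 against day 0 (0.00813 to 0.0831). The largest, 0.591, was that of replicate 4 in KO against WT at day 5, where replicate 3 was at -0.0896. The labels give no pairing. On simulated data for WT day 5 against day 0 (14114 genes), the test called 74% of genes changed by a log2 of 1 in either direction. It called 98% and 94% of those at -2 and 2, and 0.0862% of unchanged genes. All groups were drawn from WT day 0 means, with 50 genes at each fold change and as many up as down. In the real comparison 56.6% of genes were called, so these rates do not cover the effect of scaling on the real calls.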

Additional observations from a re-analysis of the deposited data

Results flagged for a closer look

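Single libraries stood apart from the other 3 of their group in 4 of 108 groups of named members, where chance alone gives about 1 in 20. The low value was Cox6b2 in KO day 0 replicate 3, at 2.36 CPM against 5.93 to 6.47 CPM in the rest of the group. The high values were Cox6a2 in KO day 0 replicate 4 (2.49 CPM), Cox7a2l in KO day 5 replicate 2 (117 CPM) and Atp5b in WT day 10 replicate 4 (2120 CPM). The Cox6a2 library was also the one with 16 Cox8b counts, and the Atp5b library had the highest summed proximal tubule markers of its group. Their part in these levels was not tested.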

How the results depend on the processing

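Of 4246 values of named members in the 4 obstruction comparisons under the alternatives, 3902 kept their call or their lack of one. A further 283 lost the call, 29 gained it and 32 changed sign. Values called in neither setting, such as Ndufa7 at WT day 5 (-0.41 on counts and 0.24 on FPKM), are not among these sign changes. Most losses were at day 5, with 111 in WT and 137 in KO. In the other 7 comparisons, where most genes were not called to begin with, 104 calls were lost and 73 gained. Of 1137 complex medians over all comparisons, 1033 moved by less than the spread between libraries. The number of members called at WT day 5 (83) was 33 with limma on log2(FPKM + 1), 33 with a pseudocount of 0.1, 32 with no FPKM filter and 48 with total count scaling. At KO day 5 (82) the FPKM settings gave 20, 20 and 17. For WT day 10 against day 5 (25 called) the compared groups alone and leaving out WT day 10 replicates 2 and 3 gave 0 each. The day 0 genotype comparison gave 10 calls in the compared groups alone. With each library left out in turn, calls ranged from 79 to 83 at WT day 5, 85 to 85 at WT day 10, 75 to 82 at KO day 5, 82 to 85 at KO day 10, 1 to 69 for WT day 10 against day 5, 0 to 0 for KO day 10 against day 5, 0 to 0, 0 to 2 and 0 to 6 for the genotypes at day 0, 5 and 10, and 0 to 0 and 0 to 8 for the interaction at day 5 and 10. With the replicate number as a block, pairing the samples gave 28 calls for WT day 10 against day 5 and moved no count of calls by over 1.5 times.

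Among named members called on either scale, signs changed on the FPKM scale at WT day 5 for Atp5g2 (0.35) and Cox7a2l (0.35). They also changed there for Ndufa6 (0.0038 and 0.0039), Ndufaf2 (0.17 and 0.18), Ndufaf3 (0.13) and Ndufs7 (0.0307 and 0.0309). At KO day 5 signs changed for Atp5g2 (0.22) and Ndufaf5 (0.0282 and 0.0309). That of Cox7a2l changed at WT day 10 (0.56) and KO day 10 (0.44 and 0.45) as well. Members not named are outside this list. Among them, Ndufa2 (0.05) and Ndufa3 (0.10) at WT day 5 and Ndufaf7 (0.08) at KO day 5 were called lower on counts and lay above 0 by FPKM. With total count scaling signs of named members changed for Cox7a2l at WT day 10 (0.47) and Ndufaf2 at WT day 5 (0.0205). The complex I median of the day 10 interaction was -0.0203 without WT day 10 replicates 2 and 3. The cause was not tested. Depth limits Cox6a2, Cox8b, Cox4i2 and Atp5l.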
